A study of Mus musculus with 4 samples.

Results

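The genes described here are 7 of the 55335 listed in an RNA-seq table of mouse stomach epithelium: Clps, Pla2g1b, Pnlip, Pnliprp1, Pnliprp2, Cel and Lipf, the enzymes and the cofactor best known from fat digestion by pancreatic juice, with gastric lipase beside them. They were chosen by name, with their difference between the 2 sorted fractions already known, so that difference is given as a description and carries no test. IQ3pos is RNA of EpCAM-positive, living cells of the stomach corpus that were bright for tdTomato, and IQ3neg is RNA of EpCAM-positive, living cells of the same organ that were dim or dark for it. All mice were C57BL/6 of the Iqgap3-2A-tdTomato genotype, aged 6 to 8 weeks and with no treatment named, so both fractions carry the same allele, which ties the red protein to Iqgap3, and are parted by brightness. Each fraction has 2 libraries prepared by SMART-Seq2, in which whole cDNAs are copied from small amounts of RNA and amplified by PCR: IQ3pos_1909A and IQ3neg_1909B pool 3 mice each, and IQ3pos_1910A and IQ3neg_1910B pool 4 mice each.

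Colipase, the product of Clps, is a small protein that holds pancreatic lipase (Pnlip) on fat droplets coated with bile salts. Pnliprp1 and Pnliprp2 are relatives of that lipase; the first is known for little activity on triglycerides, and the second also splits galactolipids and phospholipids. Pla2g1b encodes a secreted phospholipase A2 that is activated by trypsin, Cel a lipase that needs bile salts, and Lipf the acid-stable lipase of the upper digestive tract, which in rodents is known mainly from glands of the tongue. In the corpus, digestive enzymes are made by chief cells at the gland base, which also secrete pepsinogen, whereas the pancreas makes them in acinar cells under the transcription factor complex PTF1.

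Depth was 90714929 and 279125309 reads in genes in IQ3pos_1909A and IQ3pos_1910A, and 115016307 and 418401262 in IQ3neg_1909B and IQ3neg_1910B. Values are CPM, counts per 1000000 reads in genes, so they are shares of a library. Epcam, the surface protein used in the sort, ranged from 473 to 517 CPM in IQ3pos and from 205 to 266 CPM in IQ3neg. Iqgap3 itself stood at 0.220 and 9.32 CPM in IQ3pos_1909A and IQ3pos_1910A, against 0.0435 and 0.452 CPM in IQ3neg_1909B and IQ3neg_1910B, so it was higher in IQ3pos between pools of the same number of mice, while the fractions overlap across pools. The 13019 genes whose mean reached 1 CPM had a median log2 difference, IQ3pos minus IQ3neg, of 0.68 on CPM and of 0.04 with TMM scaling, which corrects for library composition. In sorted bulk RNA, fewer cells of a type and less RNA per cell cannot be told apart.

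The 7 genes together made up 4.28% of the reads of IQ3pos_1909A and 0.958% of IQ3pos_1910A, against 44.5% of IQ3neg_1909B and 37.8% of IQ3neg_1910B. The exact 95% binomial intervals are narrow, 4.27% to 4.28% and 0.957% to 0.960% in IQ3pos and 44.5% to 44.5% and 37.8% to 37.8% in IQ3neg, and cover counting error only. The mean share was 2.62% ± 2.35 over the IQ3pos libraries and 41.2% ± 4.73 over the IQ3neg libraries (SD, n = 2 each). Nearly all of it came from 2 genes. Clps and Pla2g1b held 4.26% and 0.954% of IQ3pos reads and 44.3% and 37.7% of IQ3neg reads, while the other 5 held 0.0115% and 0.00449% of IQ3pos reads and 0.178% and 0.162% of IQ3neg reads. The plot of library shares sets these genes beside the chief cell genes Pgc and Chia1.

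**Figure D1:**
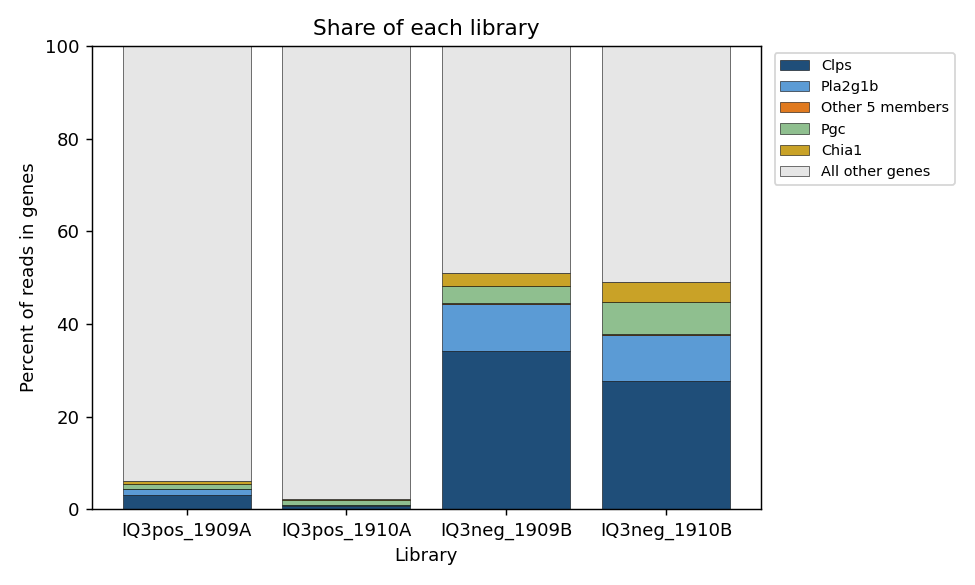
Percent of reads in genes (vertical axis, from 0 to 100) taken by Clps, Pla2g1b, the other 5 members, Pgc and Chia1 in each library, with all other genes in grey. The 7 members fill 4.28% and 0.958% of the IQ3pos bars and 44.5% and 37.8% of the IQ3neg bars, and the other 5 members are no more than a thin line.

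Levels differed by several orders of magnitude among the members. Scaled by exon length, the mean level over the IQ3pos libraries was 31801 ± 28439 CPM per kb for Clps, 9337 ± 8454 for Pla2g1b, 28.5 ± 10.1 for Pnliprp2, 12.4 ± 10.5 for Pnliprp1 and 3.74 ± 5.04 for Cel (SD, n = 2 each). Over the IQ3neg libraries it was 505779 ± 73984 CPM per kb for Clps, 141511 ± 2733 for Pla2g1b, 411 ± 115 for Pnliprp1, 296 ± 27.8 for Cel and 101 ± 52.8 for Pnliprp2. Pnliprp2 thus came after Pla2g1b per kb in IQ3pos and after Cel in IQ3neg. Pnlip and Lipf came last in both fractions, at no more than 0.434 CPM per kb in any library. Across the IQ3pos libraries the ranges of Clps and Pla2g1b overlap, and so do those of Pnliprp1 and Cel, but within each IQ3pos library Clps lay above Pla2g1b, and Pnliprp1, at 19.8 and 4.95 CPM per kb, lay above Cel, at 7.30 and 0.175. In IQ3neg no neighbours overlap among the 5, although Cel at 276 and 315 CPM per kb in IQ3neg_1909B and IQ3neg_1910B comes close to Pnliprp1 at 493 and 330.

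**Figure D2:**
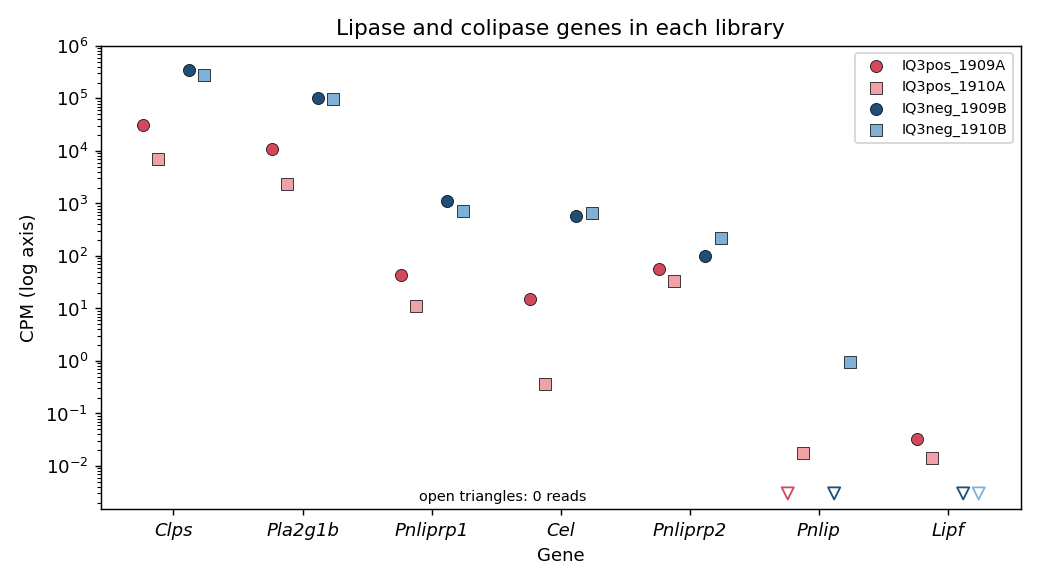
CPM of the 7 genes (log axis) in the 2 IQ3pos libraries (red) and the 2 IQ3neg libraries (blue), with circles for pools of 3 mice and squares for pools of 4 mice; open triangles at the foot mark 0 reads. For Clps, Pla2g1b, Pnliprp1, Cel and Pnliprp2 both IQ3pos points lie below both IQ3neg points, and Pnlip and Lipf lie under 1 CPM throughout.

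The cofactor gene Clps (ENSMUSG00000024225.5; GRCm38 chromosome 17, 28558149 to 28560766, minus strand) stood at 31717 and 7144 CPM in IQ3pos_1909A and IQ3pos_1910A, against 340995 and 277067 CPM in IQ3neg_1909B and IQ3neg_1910B. Both IQ3pos values lie far below both IQ3neg values, and the IQ3pos libraries differ from each other more than the IQ3neg libraries do. Counted from the most abundant of all listed genes, it held rank 3 in IQ3pos_1909A and rank 7 in IQ3pos_1910A, and rank 1 in both IQ3neg libraries. Clps was 10.8-fold lower in IQ3pos among the pools of 3 mice and 38.8-fold lower among the pools of 4 mice. The mean difference of log2(CPM + 1) was −4.35, or −5.43 without IQ3pos_1909A and −3.28 without IQ3pos_1910A.

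Pla2g1b (ENSMUSG00000029522.12; chromosome 5, 115466262 to 115474722, plus strand), the phospholipase, followed Clps closely. Its level was 10920 and 2395 CPM in IQ3pos_1909A and IQ3pos_1910A, against 102275 and 99519 CPM in IQ3neg_1909B and IQ3neg_1910B. The 2 IQ3neg pools are nearly equal, and the IQ3pos pools differ 4.56-fold, much as they do for Clps, where the ratio is 4.44. Within a library, Clps gave 2.90 and 2.98 reads for each Pla2g1b read in IQ3pos_1909A and IQ3pos_1910A, and 3.33 and 2.78 in IQ3neg_1909B and IQ3neg_1910B. Per kb of exon those ratios are 3.39 and 3.48 in IQ3pos and 3.89 and 3.25 in IQ3neg. The ratio of the 2 genes therefore varied far less between libraries than either level did, and its values in the fractions overlap. Pla2g1b differed by −4.30 on the log2(CPM + 1) scale, or −5.40 without IQ3pos_1909A and −3.21 without IQ3pos_1910A.

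The pancreatic lipase family has 3 members here, which lie in a row on the plus strand of chromosome 19, from Pnlip at 58652498 to 58681788 through Pnliprp1 at 58728887 to 58744169 to Pnliprp2 at 58759719 to 58777534, a stretch of 125 kb. No run of 50 bases in the annotated transcripts of the 7 genes occurs in a transcript of another gene, so reads of that length would not be split among these relatives. The 300-base windows around their RefSeq starts are shown because the 3 neighbours differ so much in level, together with that of Cel, the member with the widest difference between fractions. Capitals mark TTCCCA or its complement TGGGAA, letters of the box bound by the RBPJ-type subunit of PTF1; build GRCm38.p6, sequences from RefSeq. The RefSeq start of Pnlip lies inside the GENCODE span given above.

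Pnlip (chr19:58670115-58670414, plus strand): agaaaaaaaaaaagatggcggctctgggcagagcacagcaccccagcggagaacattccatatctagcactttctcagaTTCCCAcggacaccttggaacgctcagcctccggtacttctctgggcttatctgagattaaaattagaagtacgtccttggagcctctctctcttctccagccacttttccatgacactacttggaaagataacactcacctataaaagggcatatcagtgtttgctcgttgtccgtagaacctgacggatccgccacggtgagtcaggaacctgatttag
Pnliprp1 (chr19:58728637-58728936, plus strand): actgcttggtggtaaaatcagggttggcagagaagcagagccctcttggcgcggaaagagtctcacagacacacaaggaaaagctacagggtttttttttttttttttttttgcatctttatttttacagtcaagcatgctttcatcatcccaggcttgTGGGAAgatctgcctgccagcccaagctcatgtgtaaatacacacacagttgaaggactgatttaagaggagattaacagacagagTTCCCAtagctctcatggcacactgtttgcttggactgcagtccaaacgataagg
Pnliprp2 (chr19:58759473-58759772, plus strand): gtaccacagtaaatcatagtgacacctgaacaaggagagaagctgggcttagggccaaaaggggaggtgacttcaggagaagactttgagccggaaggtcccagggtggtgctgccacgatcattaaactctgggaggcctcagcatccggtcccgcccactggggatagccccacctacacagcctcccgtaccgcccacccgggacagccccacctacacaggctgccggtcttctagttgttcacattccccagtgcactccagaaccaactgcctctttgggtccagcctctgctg
Cel (chr2:28563354-28563653, minus strand): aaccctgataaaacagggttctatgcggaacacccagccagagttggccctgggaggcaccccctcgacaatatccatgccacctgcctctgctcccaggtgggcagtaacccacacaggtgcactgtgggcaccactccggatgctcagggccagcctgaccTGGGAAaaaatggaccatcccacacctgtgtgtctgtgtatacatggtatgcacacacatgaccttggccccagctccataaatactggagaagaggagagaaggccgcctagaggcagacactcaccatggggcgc

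RefSeq windows were found for 6 of the 7 genes, all but Clps, and were searched on both strands for TTCCCA and for the E-box letters CAGCTG and CATATG, which do not overlap it. TTCCCA has 2 matches in the Pnliprp1 window, 91 and 5 bases before the start. It has 1 match in the Cel window, 87 bases before the start, and 1 in the Pnlip window, 171 bases before it. The windows of Pnliprp2, Pla2g1b and Lipf hold no match, and neither E-box occurs in any of the 6. Of 32851 mouse windows of the same length, 25.6% hold TTCCCA, 16.3% CAGCTG and 3.91% CATATG, so these matches are common letters and are given as a description. The nearly silent Pnlip has a match, and the abundant Pla2g1b has none, in a window that ends before its GENCODE start. Whether these letters bear on the levels was not tested.

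Pnlip (ENSMUSG00000046008.8), the gene of the classical pancreatic lipase, was close to absent. It had 0 and 5 reads in IQ3pos_1909A and IQ3pos_1910A, against 0 and 399 reads in IQ3neg_1909B and IQ3neg_1910B. The highest value, in IQ3neg_1910B, is 0.954 CPM with an exact 95% Poisson interval of 0.862 to 1.05, and the 5 reads of IQ3pos_1910A are 0.0179 CPM (0.00582 to 0.0418). The 0 reads of IQ3pos_1909A and IQ3neg_1909B allow up to 0.0331 and 0.0261 CPM, taking 3 reads as the limit. More than the limit of 3 reads was thus seen in the pools of 4 mice alone, whereas its cofactor Clps was abundant in all 4 libraries.

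Pnliprp1 (ENSMUSG00000042179.6) stood at 43.9 and 11.0 CPM in IQ3pos_1909A and IQ3pos_1910A, against 1096 and 733 CPM in IQ3neg_1909B and IQ3neg_1910B. The fractions do not overlap, and the lower IQ3pos value again belongs to the pool of 4 mice. The gene was 24.9-fold lower in IQ3pos among the pools of 3 mice and 66.7-fold lower among the pools of 4 mice. Its log2(CPM + 1) difference was −5.27. Without IQ3pos_1909A it was −6.22, and without IQ3pos_1910A −4.32.

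Pnliprp2 (ENSMUSG00000025091.4) differed least of the 5 expressed members. It had 56.0 and 33.5 CPM in IQ3pos_1909A and IQ3pos_1910A, against 101 and 218 CPM in IQ3neg_1909B and IQ3neg_1910B. The groups do not overlap, but IQ3pos_1909A lies only 1.80-fold below IQ3neg_1909B, whereas IQ3pos_1910A lies 6.51-fold below IQ3neg_1910B. On the log2(CPM + 1) scale the difference was −1.75, and −1.20 without IQ3neg_1910B; scalings that take composition into account gave −2.54 to −2.48. Pnliprp1 and Pnliprp2, though 15549 bases apart, stood in opposite order in the fractions. There were 0.785 and 0.328 Pnliprp1 reads for each Pnliprp2 read in IQ3pos_1909A and IQ3pos_1910A, and 10.9 and 3.36 in IQ3neg_1909B and IQ3neg_1910B. This ratio does not depend on library scaling, and all its IQ3pos values lie below its IQ3neg values.

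Cel (ENSMUSG00000026818.5; chromosome 2, 28555795 to 28563403, minus strand), the bile salt-dependent lipase, showed the widest gap. It stood at 15.4 and 0.369 CPM in IQ3pos_1909A and IQ3pos_1910A, against 581 and 663 CPM in IQ3neg_1909B and IQ3neg_1910B. The value of IQ3pos_1910A rests on 103 reads (exact 95% Poisson interval 0.301 to 0.448 CPM) and lies 41.6-fold below that of IQ3pos_1909A, while the IQ3neg pools differ 1.14-fold. Cel was 37.8-fold lower in IQ3pos among the pools of 3 mice and 1798-fold lower among the pools of 4 mice. The log2(CPM + 1) difference of −7.04 therefore leans on IQ3pos_1910A: it was −5.25 without that library and −8.83 without IQ3pos_1909A.

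Lipf (ENSMUSG00000024768.5; chromosome 19, 33961187 to 33976810, plus strand), the gastric lipase gene, was at the limit of detection. It had 3 and 4 reads in IQ3pos_1909A and IQ3pos_1910A, or 0.0331 and 0.0143 CPM, against 0 reads in both IQ3neg libraries, which allows up to 0.0261 and 0.00717 CPM in IQ3neg_1909B and IQ3neg_1910B. Values this low were also found for genes of cells that the sort should lack, such as Adipoq of fat cells, at 0.0220 CPM in IQ3pos_1909A and 0 in the other 3 libraries. No fold is given for Lipf, since both groups are at or near the floor of 3 reads.

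Of the 7 genes, 5 passed the filter of a mean of 1 CPM, and in all 5 both IQ3pos libraries lay below both IQ3neg libraries, as 14.2% of the 13019 tested genes did on CPM and 23.0% with TMM scaling. The opposite order was found for 40.9% of tested genes on CPM and 24.7% with TMM scaling. Because the genes were chosen with this contrast known, nothing is read from the count of 5. The log2 differences of the 5 ranged from −7.04 to −1.75, beside a median of 0.68 over all tested genes. Each of the 5 stayed below 0 with the other scalings and count models, as the plot of settings shows. Other pseudocounts and a library left out could change the size but not the sign, since the fractions do not overlap for these genes. Other filters and the replicate block cannot move these estimates. The other pseudocounts gave Cel −7.85 and −5.90, and the scalings that correct for composition moved all 5 further down, to between −5.16 and −5.08 for Clps and between −7.77 and −7.63 for Cel.

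**Figure D3:**
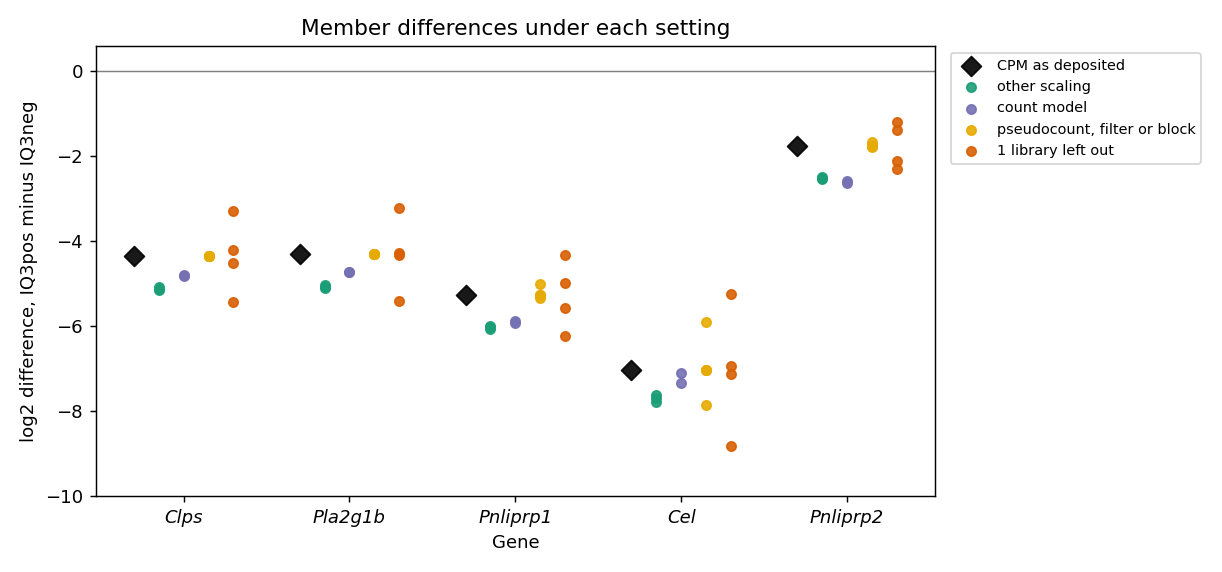
Difference of each expressed member, IQ3pos minus IQ3neg, on the log2 scale (vertical axis), with the deposited CPM as a black diamond and the alternative settings as coloured points by kind. All points lie below 0; leaving out a library moves Cel most, between −8.83 and −5.25.

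Counting reads against Clps within a library removes the scaling altogether and sets the other members beside chief cell genes. Pnliprp1 had 139 and 154 reads per 100000 Clps reads in IQ3pos_1909A and IQ3pos_1910A, against 321 and 265 in IQ3neg_1909B and IQ3neg_1910B. Cel had 48.4 and 5.17 in the IQ3pos libraries and 170 and 239 in the IQ3neg libraries. These 2 lipases were thus lower relative to Clps in both IQ3pos libraries. Pnliprp2 went the other way, with 176 and 469 reads per 100000 Clps reads in IQ3pos_1909A and IQ3pos_1910A and 29.5 and 78.7 in IQ3neg_1909B and IQ3neg_1910B.

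The chief cell genes Pgc, Cblif and Chia1 also had higher ratios to Clps in IQ3pos. Pgc, which encodes pepsinogen C, had 37225 and 137384 reads per 100000 Clps reads in IQ3pos_1909A and IQ3pos_1910A, against 11004 and 24624 in IQ3neg_1909B and IQ3neg_1910B. Cblif, encoding intrinsic factor, had 5464 and 11010 in the IQ3pos libraries, against 2493 and 5138 in the IQ3neg libraries. Chia1, an acidic chitinase, had 17616 and 24385 in the IQ3pos libraries, against 8085 and 15816 in the IQ3neg libraries. For Pgc, Cblif and Chia1 both IQ3pos values lie above both IQ3neg values, although the gap for Cblif and Chia1 is narrow. Clps itself differed by −4.35 on the log2 scale, beside a median of 0.68 over all tested genes. A higher ratio to Clps in IQ3pos is therefore usual, and is not particular to chief cell genes or to Pnliprp2. The share of all genes with such ratios was not counted. These ratios share the contrast that chose the members and were not tested.

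**Figure D4:**
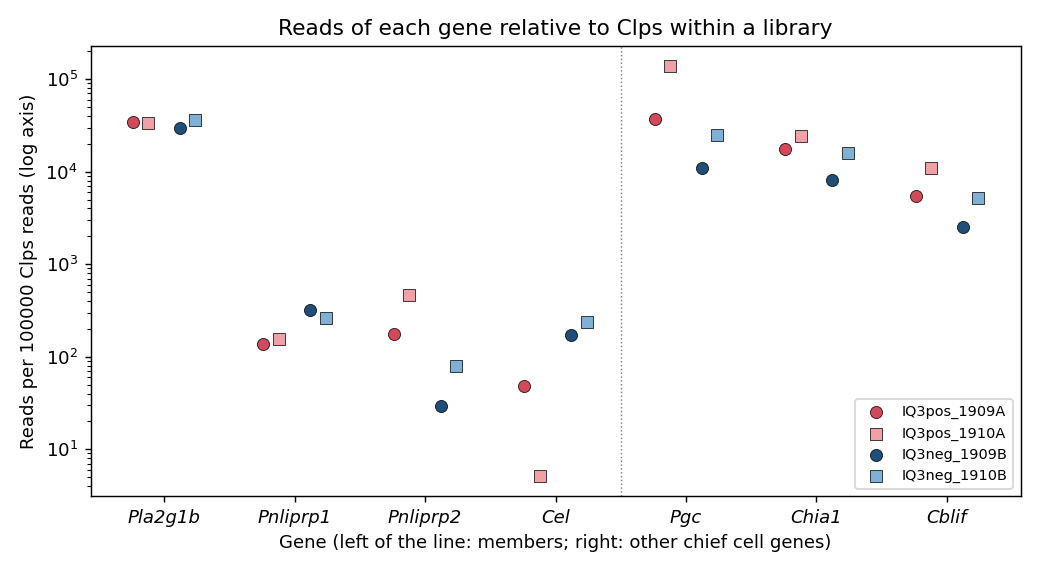
Reads of 4 members and of 3 genes from the chief cell list per 100000 Clps reads in the same library (log axis), IQ3pos in red and IQ3neg in blue. Pla2g1b keeps to 29993 to 35919 in all 4 libraries; Pnliprp1 and Cel are lower in IQ3pos, and Pnliprp2, Pgc, Chia1 and Cblif are higher.

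Over the 10 chief cell genes other than lipases, limma called 0 higher and 0 lower at an adjusted p of 0.05, as it did over all 13019 genes (0% in each direction). The lowest adjusted p over all genes was 0.0542, and 2373 higher and 648 lower genes had a p below 0.05 before adjustment. The median log2 difference of the 10 was −0.30 on CPM and −1.06 with TMM scaling, and 4 of the 10 were lower in both IQ3pos libraries and 1, Agr2, higher, beside 14.2% and 40.9% of all tested genes. With TMM scaling 7 of the 10 were lower and 1 was higher, beside 23.0% and 24.7% of all tested genes. Bhlha15, averaging 0.0548 CPM in IQ3pos and 4.31 CPM in IQ3neg, passed the filter through IQ3neg alone, so its direction was largely set by it. That gene is in both of these lower counts and in the DESeq2 count below. With TMM-scaled CPM limma called 2 lower, Pgc (adjusted p = 0.0354) and Cblif (adjusted p = 0.0478), and edgeR on the recovered reads called Pgc (adjusted p = 0.00666) and Cblif (adjusted p = 0.0246). The background is 0.0461% of genes called higher and 0.184% called lower by limma with TMM scaling, 0.0654% and 0.226% by edgeR, and 2.54% and 10.1% by DESeq2, which called 4 of the 10 lower. Pgc stood at 11807 and 9814 CPM in IQ3pos_1909A and IQ3pos_1910A, against 37522 and 68224 CPM in IQ3neg_1909B and IQ3neg_1910B. Chia1 stood at 5587 and 1742 CPM in the IQ3pos libraries, against 27568 and 43820 CPM in the IQ3neg libraries. The IQ3pos pools thus differ 1.20-fold for Pgc and 3.21-fold for Chia1, beside 4.44-fold for Clps.

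The sum over the 10 includes Agr2, which went the other way, with means of 6128 CPM in IQ3pos and 1579 CPM in IQ3neg. The summed CPM of the 10 ranged from 19928 to 25216 in IQ3pos and from 75295 to 129309 in IQ3neg. The 5 enteroendocrine markers were also lower, with a sum of 175 to 360 CPM in IQ3pos and 10178 to 16173 CPM in IQ3neg, with 0 of the 5 at 0 reads in any library. The sums of pit (4) and parietal (2) markers went the other way, at 9538 to 9754 and 2925 to 3938 CPM in IQ3pos, against 1015 to 1364 and 424 to 495 CPM in IQ3neg. The neck markers were split: Tff2 stood at 4236 and 5492 CPM in IQ3pos_1909A and IQ3pos_1910A, against 415 and 596 CPM in IQ3neg_1909B and IQ3neg_1910B, while Muc6, at 381 and 408 CPM in the IQ3pos libraries and 263 and 556 CPM in the IQ3neg libraries, overlapped. The 3 tuft markers summed to 113 to 469 CPM in IQ3pos and 324 to 913 CPM in IQ3neg. The part of any of these cell types in the member values was not tested.

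Markers of fat cells and endothelium were near 0, while the sums of immune and enterocyte markers, each resting on few genes, reached levels like those of Pnliprp1 and Cel in IQ3pos. The 3 fat cell markers summed to at most 0.0992 CPM in IQ3pos and 0.0669 CPM in IQ3neg, and the 2 endothelial ones to at most 0.110 and 0.0174 CPM. The 4 salivary and lingual gland markers summed to 0.0358 to 0.0551 CPM in IQ3pos and 5.74 to 5.87 CPM in IQ3neg. Nearly all of this was Amy1, an amylase gene, at 5.87 and 5.73 CPM in IQ3neg_1909B and IQ3neg_1910B, while Dcpp1 was at 0 reads in every library. Immune markers (3) summed to 5.23 to 56.1 CPM in IQ3pos and 18.2 to 69.3 CPM in IQ3neg. Fibroblast markers (2) summed to 0.125 to 1.09 CPM in IQ3pos and 0.397 to 13.97 CPM in IQ3neg, and red blood cell markers (2) to 0.0860 to 1.53 CPM in IQ3pos and 2.23 to 10.1 CPM in IQ3neg. Enterocyte markers (4) summed to 22.8 to 35.5 CPM in IQ3pos and 0.104 to 28.7 CPM in IQ3neg. Most of the enterocyte sum was Vil1, with means of 26.9 CPM in IQ3pos and 14.2 CPM in IQ3neg. In IQ3pos Sis averaged 2.17 CPM, Lct 0.0641 CPM and Alpi 0.0367 CPM. The immune sum came from Ptprc and Cd68, as Cd3e averaged 0.0347 CPM in IQ3pos and 0.0130 CPM in IQ3neg.

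Many genes of the pancreatic acinar cell were near absent. Of 32 such genes other than lipases, a list that shares Bhlha15 with the chief one, 15 were at 1 CPM or less in every library, the highest of them at 0.591 CPM. They include Cpa1 and Cpb1, carboxypeptidases of pancreatic juice, with at most 4 reads in any library, and Sycn and Ctrl; these names were picked after their values were seen. The summed CPM of all 32 was 98.6 and 212 in IQ3pos_1909A and IQ3pos_1910A, against 703 and 675 in IQ3neg_1909B and IQ3neg_1910B. A further 9 exceeded 10 CPM in at least 1 library.

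The abundant ones were the trypsinogen genes Try4 and Try10, related copies among which reads may have been split, which was not tested. Try4 stood at 21.2 and 8.72 CPM in IQ3pos_1909A and IQ3pos_1910A, against 348 and 301 CPM in IQ3neg_1909B and IQ3neg_1910B. Try10 stood at 8.12 and 12.0 CPM in the IQ3pos libraries, against 190 and 189 CPM in the IQ3neg libraries. Of the 13 tested acinar genes limma called 0 in either direction on CPM; Try4 and Try10 were called lower with TMM-scaled CPM (adjusted p = 0.0416 and 0.0295), and edgeR called them (adjusted p = 0.0255 and 0.0158) and Rbpjl. The 13 had a median log2 difference of −3.01, or −3.44 with TMM scaling. Both IQ3pos libraries lay below both IQ3neg libraries for 11 of them and above for 1, Cela1, an elastase gene, which stood at 67.1 and 182 CPM in IQ3pos_1909A and IQ3pos_1910A, against 2.73 and 42.0 CPM in IQ3neg_1909B and IQ3neg_1910B. The counts of 11 and 1 were the same with TMM scaling, and the shares over all tested genes are 14.2% below and 40.9% above on CPM and 23.0% below and 24.7% above with TMM scaling. Ptf1a, Cela2a, Gp2, Bhlha15, Prss1, Amy2b, Rbpjl and Ctrb1 passed the filter through IQ3neg alone, so their direction was largely set by it. Their IQ3pos means ran from 0.0107 CPM (Ptf1a) to 0.450 CPM (Ctrb1). The median and the counts share this limit, and nothing is read from them.

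Both specific subunits of PTF1 were present in IQ3neg and near 0 in IQ3pos; they are named after their values were seen. Ptf1a had 0 and 6 reads in IQ3pos_1909A and IQ3pos_1910A (0 and 0.0215 CPM), against 4419 and 13496 reads in IQ3neg_1909B and IQ3neg_1910B (38.4 and 32.3 CPM). Rbpjl had 0.639 and 0.0717 CPM in the IQ3pos libraries and 47.2 and 34.3 CPM in the IQ3neg libraries. Relative to Clps, Ptf1a had 0 and 0.301 reads per 100000 in IQ3pos_1909A and IQ3pos_1910A and 11.3 and 11.6 in IQ3neg_1909B and IQ3neg_1910B, so the 2 genes did not keep a fixed ratio. For Ptf1a the limma adjusted p was 0.0659 on CPM and 0.0836 with TMM-scaled CPM, and edgeR gave 0.0595, whereas DESeq2 called the gene lower (adjusted p = 5.99e-16). For Rbpjl the limma values were the same, and edgeR (adjusted p = 0.0362) and DESeq2 (adjusted p = 1.27e-06) called it lower. DESeq2 called 9 of the 13 acinar genes lower, beside the 10.1% of all genes it tested. Ptf1a, Rbpjl and others of the 13 passed the mean filter through IQ3neg alone, which limits this count too.

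**Figure D5:**
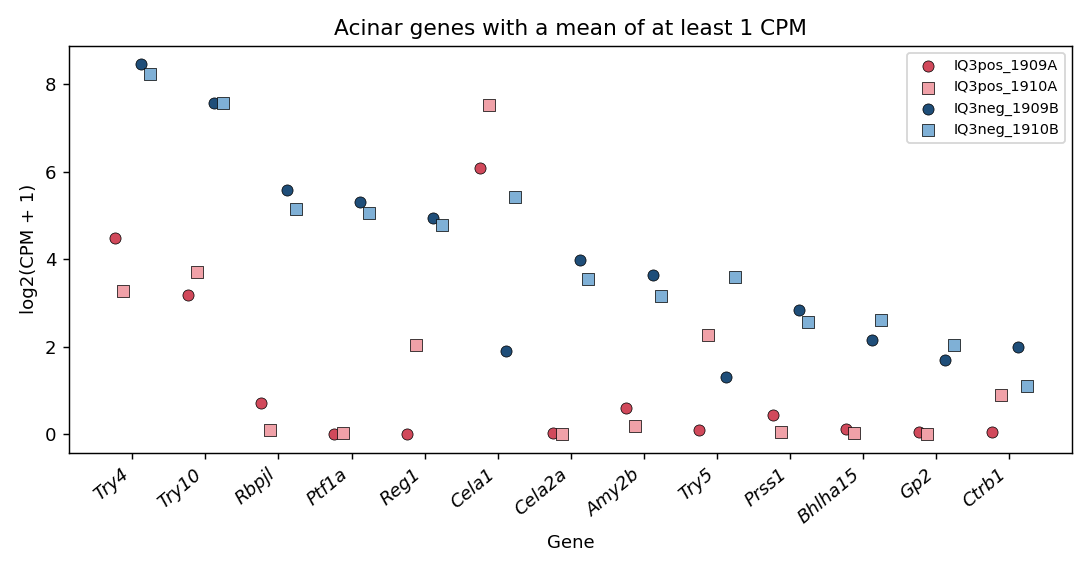
The 13 acinar genes averaging 1 CPM or more, as log2(CPM + 1) in each library, ordered by their IQ3neg mean. The IQ3pos points (red) of Ptf1a, Rbpjl, Cela2a and Amy2b lie below 1 where the IQ3neg points (blue) lie between 3 and 6, and Cela1 is the gene with both red points above both blue ones.

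The profile of Clps over the 4 libraries was matched most closely by Pla2g1b, with a root mean square distance of 0.096 log2 units between the centred profiles, among genes averaging 100 CPM or more. Pnliprp1 came seventh at 0.479. The nearest genes outside the 7 were Nupr1, encoding a stress-induced chromatin protein (0.129), Ncam1, a neural cell adhesion molecule (0.317), Try4 (0.344), Dbpht2 (0.410) and Ceacam10, an adhesion molecule of the immunoglobulin family (0.416). Nupr1 stood at 143 and 33.6 CPM in IQ3pos_1909A and IQ3pos_1910A, against 1893 and 1220 CPM in IQ3neg_1909B and IQ3neg_1910B. Of chief cell genes, Chia1 ranked 11th at 0.580, Cblif 17th at 0.759 and Pgc 28th at 1.32. The enteroendocrine genes Ghrl (9th, 0.566), Chgb (15th, 0.690) and Chga (16th, 0.699) lay as near, with Cel at 1.45 and Pnliprp2 at 1.48 farther still. With 4 libraries in 2 fractions, many genes that differ between fractions come close, and the distance is a description.

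Other genes of lipid breakdown gave mixed values. Of 14 other secreted lipase genes 3 reached the filter, and limma called 0 higher and 0 lower. Their median log2 difference was 0.67 on CPM and −0.05 with TMM scaling. Liph, which encodes a phospholipase that makes lysophosphatidic acid, had 120 and 169 CPM in IQ3pos_1909A and IQ3pos_1910A, against 28.1 and 65.5 CPM in IQ3neg_1909B and IQ3neg_1910B (difference 1.70, SE 0.51, limma adjusted p = 0.136). Lpl, the lipoprotein lipase, had 26.9 and 4.07 CPM in IQ3pos, against 52.7 and 43.3 CPM in IQ3neg (difference −2.03, SE 0.90, limma adjusted p = 0.246). Of the 3, 2 were higher and 1 was lower in both IQ3pos libraries on CPM, beside 40.9% and 14.2% of all tested genes, and 1 was higher and 1 lower with TMM scaling, beside 24.7% and 23.0%.

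Among 11 other secreted phospholipases A2, 6 were tested, 0 were called in either direction and the median log2 difference was 1.15, or 0.72 with TMM scaling. Pla2g2e (2.68 ± 3.78 CPM in IQ3pos) and Pla2g5 (2.54 ± 3.57 CPM) passed the filter mostly through IQ3pos_1909A. Pla2g2f (2.40 ± 3.39 CPM in IQ3neg) passed mostly through IQ3neg_1909B (SD, n = 2 each). The median leans on such genes. Pla2g10, the most abundant, had the opposite direction to Pla2g1b: it stood at 99.3 and 190 CPM in IQ3pos_1909A and IQ3pos_1910A, against 16.2 and 22.6 CPM in IQ3neg_1909B and IQ3neg_1910B (difference 2.78, SE 0.49, limma adjusted p = 0.0659). Pla2g12a stood at 18.3 and 17.8 CPM in the IQ3pos libraries, against 7.20 and 10.1 CPM in the IQ3neg libraries (limma adjusted p = 0.439). Of 26 intracellular lipase and esterase genes, 19 were tested and 0 called in either direction, with a median of 0.11 on CPM and −0.64 with TMM scaling. Aadac, an esterase of the endoplasmic reticulum, stood at 137 and 405 CPM in IQ3pos_1909A and IQ3pos_1910A, against 4.42 and 33.5 CPM in IQ3neg_1909B and IQ3neg_1910B (limma adjusted p = 0.0966), and Ddhd2, a triglyceride lipase, at 92.0 and 47.9 CPM in the IQ3pos libraries, against 103 and 82.8 CPM in the IQ3neg libraries (limma adjusted p = 0.543).

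Genes that help lipases fold or act had 5 of 10 members tested, 0 called in either direction and a median log2 difference of 0.95, or 0.24 with TMM scaling. Sel1l, needed for the exit of lipoprotein lipase from the endoplasmic reticulum, stood at 195 and 185 CPM in IQ3pos_1909A and IQ3pos_1910A, against 212 and 266 CPM in IQ3neg_1909B and IQ3neg_1910B (limma adjusted p = 0.520). Lmf1, a lipase maturation factor, stood at 29.3 and 28.2 CPM in the IQ3pos libraries, against 17.7 and 11.2 CPM in the IQ3neg libraries (limma adjusted p = 0.364). Clpsl2, a colipase-like gene, had 2 reads in each IQ3pos library and 0 in each IQ3neg library. Of 14 genes of fat uptake and chylomicron assembly, 13 were tested and 0 called in either direction, with a median of 1.05, or 0.68 with TMM scaling, and 7 were higher and 0 lower in both IQ3pos libraries, beside 40.9% and 14.2% of all tested genes. With TMM-scaled CPM those counts were 4 and 1, beside 24.7% and 23.0%. Acsl5, which activates fatty acids, had 292 and 346 CPM in IQ3pos_1909A and IQ3pos_1910A, against 59.6 and 110 CPM in IQ3neg_1909B and IQ3neg_1910B (limma adjusted p = 0.0733). Apoa1, an apolipoprotein, had 289 and 124 CPM in IQ3pos_1909A and IQ3pos_1910A, against 50.8 and 54.6 CPM in IQ3neg_1909B and IQ3neg_1910B (limma adjusted p = 0.111).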

How the data were processed

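The authors deposited 1 table of CPM per gene symbol, of which all 4 value columns were used. The submitters' processing notes name STAR 2.7.1a, featureCounts, Subread 2.0.0, edgeR and the build GRCm38, with no role or order for any; annotation, strand and duplicate handling were not given in the sources used here. The deposited CPM add up to 1000000 in every library, hence without a composition factor. Of the values above 0, 100% were within 0.05 of a whole read, and these read counts were recovered from the deposited values. SMART-Seq2 has no molecular identifiers, so intervals cover counting error only.

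The 7 genes, the 7 lists and the tests were chosen with earlier results of these data known. Limma-trend 3.58.1 (R 4.3.3) was fitted on log2(CPM + 1) for 13019 genes averaging 1 CPM or more (two-sided, IQ3pos minus IQ3neg), with Benjamini-Hochberg adjustment over all of them at 0.05. Fold changes on this scale understate those of low genes. Each library is 1 pool, and whether pools share mice is not said, so p-values measure the spread between pools, which may be technical. Alternatives were other pseudocounts (0.1 and 5), filters and scalings (TMM and DESeq2 size factors applied to CPM, and CPM over all genes but the 7), each library left out, a block for the library number, edgeR 4.0.16 and DESeq2 1.42.0 on the recovered reads.

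Named were the 7 genes, the members of each list past the threshold or else the 2 of highest mean CPM, and the 5 genes nearest to Clps; any other gene was chosen after its value was seen. Markers of cell types are given by their summed CPM. Positions and exon lengths (union of exons) are from GENCODE vM21. A planned comparison of protein sequences was not made.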

Additional observations from a re-analysis of the deposited data

How the results depend on the processing

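The log2 differences of Clps, Pla2g1b, Pnliprp1, Cel and Pnliprp2 were below 0 with the other scalings and count models. Other pseudocounts and a library left out could change their size but not their sign, since the fractions do not overlap. Other filters and the replicate block leave them as they are. Pnliprp2 was the gene whose value moved by more than the spread between libraries: −2.51 with TMM-scaled CPM, −2.54 with DESeq2-scaled CPM, −2.48 with CPM over all genes but the 7, −2.62 in edgeR and −2.57 in DESeq2, against −1.75 on deposited CPM. Each of these settings takes out the composition shift. With TMM-scaled CPM the others moved by similar amounts, but their libraries spread more. Clps went from −4.35 to −5.12, Pla2g1b from −4.30 to −5.07, Pnliprp1 from −5.27 to −6.01 and Cel from −7.04 to −7.63. With 1 library left out, the difference ranged from −5.43 to −3.28 for Clps, −5.40 to −3.21 for Pla2g1b, −6.22 to −4.32 for Pnliprp1, −8.83 to −5.25 for Cel and −2.31 to −1.20 for Pnliprp2. The summed share outside mitochondrially encoded transcripts was 2.94% in IQ3pos and 43.7% in IQ3neg.

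Counts of called genes depended heavily on the setting, and the cause was not tested. Over all genes, 0 higher and 0 lower on deposited CPM became 239 and 54 with a pseudocount of 5, 999 and 87 with a mean of at least 10 CPM, 6 and 24 with TMM-scaled CPM, 7 and 34 with DESeq2-scaled CPM, 2 and 12 with CPM over all genes but the 7, 11 and 38 in edgeR and 427 and 1705 in DESeq2. They stayed at 0 and 0 with a pseudocount of 0.1, with no filter and with any library left out; a lone library in a fraction was then assumed to vary like the other fraction.

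Lower chief cell genes numbered 2 with a pseudocount of 5, TMM, DESeq2 scaling or edgeR, 3 with a mean of at least 10 CPM and 4 in DESeq2. Lower acinar genes numbered 2 with a pseudocount of 5, TMM or DESeq2 scaling, 1 without the 7 genes in the total, 3 with a mean of at least 10 CPM or in edgeR and 9 in DESeq2. With a mean of at least 10 CPM, 999 genes were called higher over all. Among them were 1 phospholipase A2, 2 intracellular lipase, 2 fat uptake and 1 chief cell gene. DESeq2 also called 1 secreted lipase higher, a gene below the mean of 1 CPM and so not Liph, Lpl or Lipo3. It called 1 phospholipase A2, Pla2g2d, lower. The counts over all genes at each setting are those given above. Shares of the list genes tested at each setting were not worked out, so nothing is read from these list counts.

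The fractions share the numbers in their library names, which the labels do not explain, and deviations of same-numbered libraries correlated at 0.148 across 13019 genes, so with 2 pairs it cannot be told whether the numbers mark shared mice. With the number as a replicate block, limma called 1216 genes higher and 125 lower, among them, higher, 1 secreted lipase, 1 phospholipase A2, 2 intracellular lipase, 2 fat uptake, 1 chief cell and 1 acinar gene, and, lower, 3 chief cell and 4 acinar genes. With 2 libraries per fraction, precision is limited by their spread, and counting error matters for genes with few reads, such as Pnlip, Lipf, Clpsl2, Cpa1 and Cpb1, and for Ptf1a and Cel in IQ3pos.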
